A study of Mus musculus with 74 samples.

Results

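The 39 genes described here encode the machinery with which a cell copies its DNA and divides, and they were chosen by symbol from the 49912 genes of a deposited count table. They are the cyclin-dependent kinase Cdk1 with its cyclins Ccna2, Ccnb1 and Ccnb2, the mitotic kinases and checkpoint proteins, the ubiquitin ligase parts Cdc20 and Ube2c, the spindle and cytokinesis proteins, chromosome proteins including Top2a and the antigen Ki-67 (Mki67), the Mcm helicase with its clamp Pcna, enzymes of nucleotide synthesis, and the microtubule destabiliser Stmn1. The table came from 74 libraries of 37 mice. The mice were Trem2 -/- (KO), Trem2 +/- (HET) or Trem2 +/+ (WT) and ate chow with 0.2% cuprizone, or control chow, for 5 or 12 weeks. From each dissociated brain the viable Cd11b+ cells, called microglia in the labels, and all other viable cells, called nonmicroglia here, were sorted and sequenced as 3' tags. At 5 weeks each fraction held 3 KO, 3 HET and 3 WT mice on each diet. At 12 weeks it held 3 KO, 4 HET and 3 WT mice on cuprizone, and 3 KO, 4 HET and 2 WT mice on control chow. The sources used here state no strain, age or cage and not how the Trem2 allele was made, and mice fed for 12 weeks may also be older than those fed for 5, which cannot be told apart. Every mouse of the 37 gave 1 library per fraction, and 12 of the 37 were males.

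Adult microglia divide slowly at rest and can divide rapidly when tissue is damaged. Cuprizone kills mature oligodendrocytes, the myelin-forming cells, and leaves debris that microglia clear. Trem2 is a microglial receptor for lipids and debris, and signalling through it supports survival and division of these cells. Genes for DNA replication are transcribed mainly from late G1 into S phase under E2F factors. Mitotic genes peak in G2 and M phase under separate factors that read CCAAT boxes and cell cycle homology region (CHR) elements in their promoters. A transcript of these genes in bulk RNA therefore depends on the share of cells in the cycle and on the level per cell, and these cannot be told apart here.

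Promoter letters were counted for the mitosis genes and the replication genes of the set. RefSeq promoters on GRCm38.p6, each 300 bases long and running from 250 bases before the annotated start to 50 after it, were matched for 33 of the 39 genes. The motifs searched were the CCAAT box (CCAAT or ATTGG), the CHR element (TTTGAA or TTCAAA) and the E2F element (TTCCCGC as one form, TTGGCGC as another, TTCGCGC as the third and TTGCCGC as the fourth, with their reverse complements). Both strands were counted, and matches that overlap each other were each counted. A CCAAT box stood in 21 of 23 promoters of mitosis and chromosome genes and in 8 of 10 of replication and nucleotide genes (29 of 33 in all, 87.9%), against 37.4% of all 32851 promoters of the table. A CHR element stood in 18 of the 23 (78.3%), in 1 of the 10, and in 17.9% of all promoters. An E2F element stood in 3 of the 23, in 6 of the 10, and in 9.57% of all promoters. All 18 mitosis and chromosome promoters with a CHR element also held a CCAAT box, a pairing found in 6.95% of all promoters. No test compared these groups, and the matches describe letters and were not tested for binding.

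The promoters below are shown because the first 5 belong to genes that rose with cuprizone (Ccna2, the other one, is not shown) and the last 2 to subunits of the replication helicase. They are those of Top2a (chr11:99024140-99024439, minus strand), Cdk1 (chr10:69352863-69353162, minus strand), Mki67 (chr7:135716330-135716629, minus strand), Ube2c (chr2:164769679-164769978, plus strand), Birc5 (chr11:117848987-117849286, plus strand), Mcm5 (chr8:75109259-75109558, plus strand) and Mcm6 (chr1:128359656-128359955, minus strand). Each runs 5′ to 3′ on the strand of its gene, and capitals mark matches to the 3 motifs.
Top2a: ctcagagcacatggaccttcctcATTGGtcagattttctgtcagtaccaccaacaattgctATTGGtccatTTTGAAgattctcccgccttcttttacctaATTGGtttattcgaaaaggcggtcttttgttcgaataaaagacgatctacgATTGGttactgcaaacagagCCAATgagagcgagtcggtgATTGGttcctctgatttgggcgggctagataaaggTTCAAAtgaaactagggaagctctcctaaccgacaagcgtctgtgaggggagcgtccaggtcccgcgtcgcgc
Cdk1: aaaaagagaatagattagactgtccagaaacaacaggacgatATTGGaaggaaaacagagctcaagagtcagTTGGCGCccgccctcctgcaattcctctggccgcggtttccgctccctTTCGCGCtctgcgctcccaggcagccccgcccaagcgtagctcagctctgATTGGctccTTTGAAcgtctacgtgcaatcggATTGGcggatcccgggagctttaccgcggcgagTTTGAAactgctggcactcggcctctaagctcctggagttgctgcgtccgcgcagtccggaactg
Mki67: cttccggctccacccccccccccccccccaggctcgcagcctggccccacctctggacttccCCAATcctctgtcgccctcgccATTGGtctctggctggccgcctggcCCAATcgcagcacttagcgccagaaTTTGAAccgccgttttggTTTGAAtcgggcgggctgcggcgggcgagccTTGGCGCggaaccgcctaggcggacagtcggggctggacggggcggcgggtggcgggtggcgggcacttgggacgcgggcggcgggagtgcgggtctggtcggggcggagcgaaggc
Ube2c: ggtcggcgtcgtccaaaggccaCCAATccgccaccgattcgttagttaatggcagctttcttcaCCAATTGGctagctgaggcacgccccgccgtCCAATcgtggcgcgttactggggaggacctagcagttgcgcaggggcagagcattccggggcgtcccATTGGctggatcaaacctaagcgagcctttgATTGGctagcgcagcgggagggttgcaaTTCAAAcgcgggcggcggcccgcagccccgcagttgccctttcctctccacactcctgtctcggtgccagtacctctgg
Birc5: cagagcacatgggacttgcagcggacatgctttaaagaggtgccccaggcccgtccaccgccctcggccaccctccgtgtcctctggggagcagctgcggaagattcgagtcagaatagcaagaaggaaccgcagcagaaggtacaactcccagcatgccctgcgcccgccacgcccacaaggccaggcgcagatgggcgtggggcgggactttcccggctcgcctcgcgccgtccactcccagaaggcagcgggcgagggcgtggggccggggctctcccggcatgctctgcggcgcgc
Mcm5: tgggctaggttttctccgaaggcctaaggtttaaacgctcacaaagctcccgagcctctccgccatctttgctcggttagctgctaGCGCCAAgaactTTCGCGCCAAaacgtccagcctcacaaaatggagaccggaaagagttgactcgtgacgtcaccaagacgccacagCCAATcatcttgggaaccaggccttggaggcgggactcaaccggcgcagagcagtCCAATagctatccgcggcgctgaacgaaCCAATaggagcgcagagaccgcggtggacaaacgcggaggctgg
Mcm6: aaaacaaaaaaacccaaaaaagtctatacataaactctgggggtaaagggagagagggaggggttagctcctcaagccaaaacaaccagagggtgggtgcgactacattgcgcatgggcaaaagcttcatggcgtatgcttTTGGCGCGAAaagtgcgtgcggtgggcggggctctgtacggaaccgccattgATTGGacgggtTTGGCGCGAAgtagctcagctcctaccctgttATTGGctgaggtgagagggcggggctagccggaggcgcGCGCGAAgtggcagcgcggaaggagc
Top2a held 6 CCAAT boxes and 2 CHR elements with no E2F element, and Ube2c held 6 CCAAT boxes and 1 CHR element. Cdk1 held 3 CCAAT boxes, 2 CHR elements and 2 E2F elements, and Mki67 held 3, 2 and 1 of them in that order. Birc5 held none of the 3 motifs in this window. Mcm5 held 3 CCAAT boxes and 3 E2F elements, Mcm6 held 2 and 5, and no CHR element was found in either window.

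Libraries held 1043961 to 3945694 counts, so that 1 count is worth less than 1 CPM (the count scaled to a common library total) and the rarer genes rest on few counts. In microglia at 5 weeks, cuprizone libraries held 1753583 to 3945694 counts against 1456156 to 2658189 in controls. They tended to be deeper in KO (2345819 to 3945694 against 1456156 to 2158554) and WT (1851968 to 2556094 against 1577265 to 1855136). In HET they tended to be shallower (1753583 to 2013233 against 1846664 to 2658189). Of the 39 genes, 29 to 39 had a count in cuprizone libraries against 23 to 32 in control libraries. The mitochondrial share of counts at 5 weeks was 3.45% ± 0.69 in cuprizone and 2.24% ± 0.25 in control microglia (SD, n = 9 each). The part of depth and of mitochondrial share in the results was not tested. In a principal component analysis within each fraction 8 libraries stood apart (beyond 50 on component 1 or 2). In microglia they were 1 KO control at 5 weeks (mouse 945) and, at 12 weeks, KO cuprizone mice 1748 and 981, HET cuprizone mouse 9469, HET control mouse 7674 and WT control mouse 9145, and in nonmicroglia HET cuprizone mouse 9469 at 12 weeks and WT control mouse 1930 at 5 weeks. Within a fraction, p-values measure the spread between these mice. Between fractions, the main fit treats both libraries of a mouse as independent, so its p-values measure the spread between libraries. Microglial markers such as Cx3cr1 and P2ry12 summed to 32589 to 52871 CPM in the microglia fraction on cuprizone at 5 weeks and 38963 to 60104 CPM on control chow. Trem2 itself averaged 197.0 CPM in KO, 711 CPM in HET and 734 CPM in WT microglia on cuprizone at 5 weeks, and KO was lower than WT by 1.88 ± 0.33 on the log2 scale (adjusted p = 0.00103, edgeR quasi-likelihood test). Tags at the 3' end may lie outside a deleted part, so this level is only a partial check of the labels.

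After 5 weeks of cuprizone, microglia held more transcripts of the division machinery than control microglia. The summed level of the 39 genes was 770, 879 and 661 CPM in KO, 849, 1149 and 875 CPM in HET, and 660, 1001 and 1198 CPM in WT microglia on cuprizone, a mean of 894 ± 192 CPM (SD, n = 9). It averaged 412 ± 74.6 CPM in the 9 control microglia libraries, which ran between 295 and 514 CPM. All 9 cuprizone libraries lay above all 9 controls, and the ratio of the means was 2.17. At 12 weeks the sum averaged 528 ± 90.4 CPM on cuprizone (n = 10, 410 to 673 CPM) and 409 ± 64.0 CPM on control chow (n = 9, 322 to 521 CPM), a ratio of 1.29 with overlapping libraries. In nonmicroglia the sum averaged 332 ± 53.8 CPM on cuprizone and 325 ± 66.9 CPM on control chow at 5 weeks, and 384 ± 75.1 CPM on cuprizone and 432 ± 128 CPM on control chow at 12 weeks. Abundant genes weigh most in these sums, which are a description and were not tested.

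**Figure D1:**
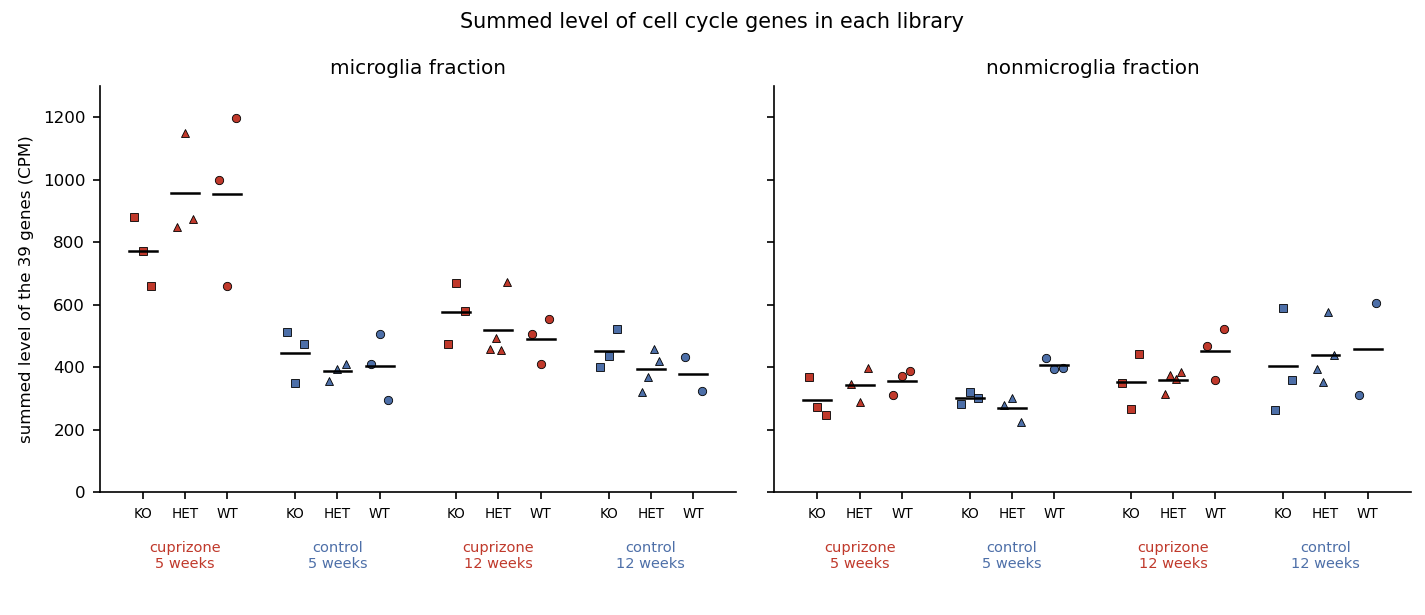
Summed level of the 39 genes in every library (y axis, CPM) by diet, weeks and Trem2 genotype in the microglia fraction (left) and the nonmicroglia fraction (right). Points are libraries and black lines are group means. The 9 microglia libraries from mice fed cuprizone for 5 weeks lie between 660 and 1198 CPM, above every control microglia library (295 to 521 CPM).

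Of the 39 genes, 6 rose with cuprizone at 5 weeks in microglia and none fell, as the mean over the 3 genotypes (edgeR quasi-likelihood test, adjusted p under 0.05 over all 14087 genes tested). Among all genes tested 1.33% were called higher and 0.27% lower in this comparison. The 6 were Top2a, Ccna2, Cdk1, Mki67, Birc5 and Ube2c, which act from S phase through mitosis. All 39 genes passed the filter on low counts, and the fitted log2 fold change was above 0 in 39 of the 39, against 50.01% of all genes. For Bub1, a checkpoint kinase with groups at 0 on both diets, the fit gave no usable standard error (one above 50) and a p of 1, so the test says nothing of it. The median of the 39 was 1.94 (1.85 with the 5 genes that had a group at 0 set to a floor of 3 counts over that group), against a median over all genes of 0.00. At an unadjusted p under 0.05 the count of members was 21 higher and 0 lower, where 7.16% of all genes were higher and 4.501% lower. DESeq2 called 7 of the 39, adding the kinetochore protein Cenpf. Without the libraries that stood apart edgeR called 8.

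Top2a, the topoisomerase that untangles replicated chromosomes (chr11:98992943-99024189, minus strand, GRCm38), had 78.7, 65.1 and 65.6 CPM in KO, 85.0, 125 and 99.3 CPM in HET, and 39.5, 132 and 126 CPM in WT microglia on cuprizone at 5 weeks. It had 8.93, 26.9 and 28.7 CPM in KO, 3.76, 28.2 and 13.7 CPM in HET, and 60.9, 71.0 and 4.40 CPM in WT microglia on control chow. In WT, 1 cuprizone library at 39.5 CPM lay below 2 controls. The log2 fold change was 1.91 ± 0.36 (SE, adjusted p = 0.000637, edgeR). At 12 weeks Top2a had a median of 53.6 CPM on cuprizone (14.6 to 96.4, n = 10) and 24.7 CPM on control chow (9.10 to 43.1, n = 9), and its difference of 0.94 ± 0.37 missed the threshold (adjusted p = 0.174, edgeR).

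Mki67, whose protein Ki-67 coats mitotic chromosomes and is the usual stain for dividing cells (chr7:135689784-135716361, minus strand), had 19.5, 16.7 and 9.80 CPM in KO, 20.5, 20.9 and 17.4 CPM in HET, and 14.5, 25.9 and 61.0 CPM in WT microglia on cuprizone at 5 weeks. Of the 9 control libraries 4 were at 0, and the highest was a KO library at 11.7 CPM. The means were 22.9 ± 15.0 CPM on cuprizone and 1.83 ± 3.80 CPM on control chow (SD, n = 9 each), and only the lowest cuprizone library lay below that KO control. The fitted log2 fold change was 4.32 ± 0.99 (adjusted p = 0.00743, edgeR). At 12 weeks the libraries overlapped throughout, with a median of 6.95 CPM on cuprizone (0 to 17.3) and 6.44 CPM on control chow (0 to 26.8), and the difference was 0.15 ± 0.84.

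Cdk1, the kinase that drives entry into mitosis (chr10:69335146-69352938, minus strand), had 43.3, 56.5 and 8.53 CPM in KO, 45.6, 58.1 and 58.4 CPM in HET, and 45.8, 75.6 and 92.1 CPM in WT microglia on cuprizone at 5 weeks. In control microglia it had 5.50 to 23.4 CPM with a median of 13.5 CPM. Apart from 1 KO library at 8.53 CPM, every cuprizone library lay above every control. The log2 fold change was 1.94 ± 0.44 (adjusted p = 0.00676, edgeR). Cdk1 was the member that also rose at 12 weeks, by 2.48 ± 0.49 (adjusted p = 0.00069, edgeR). Its 12-week levels were 9.70 to 63.4 CPM on cuprizone (median 33.7, n = 10) and 0.717 to 18.9 CPM on control chow (median 10.4, n = 9), and the groups overlapped through 2 cuprizone libraries at 9.70 and 15.2 CPM.

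Ccna2, the cyclin A of S and G2 phase (chr3:36564865-36572150, minus strand), was at 0 in 7 of 9 control microglia libraries at 5 weeks, and HET mice gave the other 2, at 2.17 and 8.28 CPM. On cuprizone it had 7.41, 15.5 and 0.853 CPM in KO, 14.8, 9.93 and 20.8 CPM in HET, and 15.3, 8.10 and 20.5 CPM in WT. The fitted log2 fold change of 6.05 ± 1.24 (adjusted p = 0.00217, edgeR) depends on the prior count, because the KO and WT control groups were at 0, and with a floor of 3 counts per group at 0 the difference was 3.55. At 12 weeks Ccna2 had a median of 6.17 CPM on cuprizone and 0 CPM on control chow, and the difference of 3.30 ± 1.22 missed the threshold (adjusted p = 0.151, edgeR). It ran from 1.53 (without WT cuprizone mouse 8043) to 4.13 (without HET control mouse 943). The remaining cyclins were sparser. Ccnb1, a cyclin B that partners Cdk1 in mitosis, had 0 to 17.1 CPM on cuprizone with 4 libraries of 9 at 0, and 0 to 1.08 CPM on control chow with 7 of 9 at 0 (log2 fold change 4.04 ± 1.52, adjusted p = 0.210, edgeR). At 12 weeks all 10 cuprizone libraries had no count of Ccnb1.

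Birc5, the survivin subunit of the chromosomal passenger complex (chr11:117849251-117855743, plus strand), had 24.9, 34.5 and 24.3 CPM in KO, 33.6, 56.1 and 19.1 CPM in HET, and 20.3, 56.2 and 40.5 CPM in WT microglia on cuprizone at 5 weeks. Control microglia held 0 to 13.9 CPM. Birc5 was the 1 member of 39 whose cuprizone libraries all lay above all controls, where 0.121% of all genes did so and 0.0426% lay all below. Its log2 fold change was 2.85 ± 0.66 (adjusted p = 0.00852, edgeR), and at 12 weeks 1.18 ± 0.66 (adjusted p = 0.420). Ube2c, the ubiquitin-conjugating enzyme of the anaphase promoting complex (chr2:164769898-164778822, plus strand), was at 0 in 6 of 9 control libraries and reached 4.63 CPM in 1 KO control. On cuprizone it had 3.90, 6.34 and 18.3 CPM in KO, 33.1, 20.9 and 17.4 CPM in HET, and 0.782, 16.2 and 25.8 CPM in WT. Its log2 fold change was 4.91 ± 1.17 (adjusted p = 0.0107, edgeR), and 1.0 ± 1.02 at 12 weeks.

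**Figure D2:**
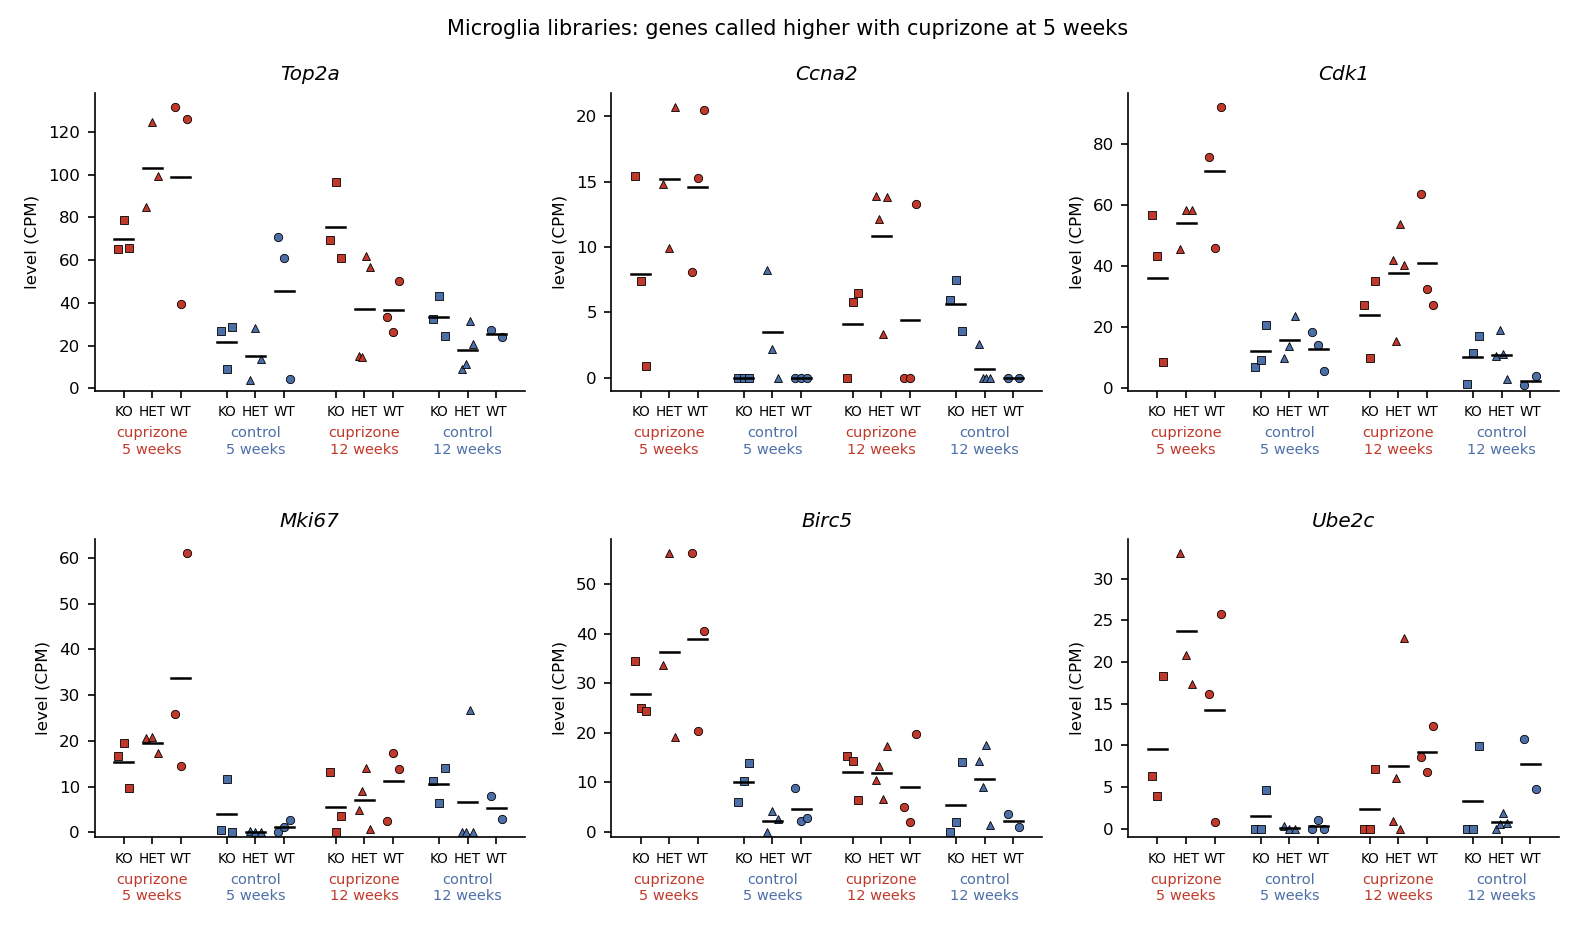
Level of the 6 genes called higher at 5 weeks (y axis, CPM) in each microglia library by diet, weeks and Trem2 genotype. Points are libraries and black lines are group means. At 5 weeks most control libraries sit near 0 for Mki67, Ccna2 and Ube2c, and at 12 weeks Cdk1 alone of the 6 was called between the diets.

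The difference at 5 weeks was spread over the roles but was uneven in size. The 2 ubiquitin ligase genes summed to 25.3 CPM on cuprizone and 5.10 CPM on control chow (ratio 4.97), the cyclins with Cdk1 to 83.3 CPM on cuprizone and 17.4 CPM on control chow (4.80), and the mitotic kinases and checkpoint genes to 66.8 CPM on cuprizone and 17.97 CPM on control chow (3.72). The 11 spindle, kinetochore and cytokinesis genes summed to 181 CPM on cuprizone, with libraries between 113 and 302, and 53.5 CPM on control chow, with libraries between 37.9 and 97.2. For these 11 and for the mitotic kinases (37.6 to 113 CPM on cuprizone, 6.61 to 31.0 CPM on control chow), the diets did not overlap. Nucleotide synthesis genes summed to 48.2 CPM on cuprizone and 20.2 CPM on control chow (2.39). Chromosome proteins summed to 227 CPM on cuprizone and 129 CPM on control chow (1.76), and the helicase with its clamp to 260 CPM on cuprizone and 168 CPM on control chow (1.54), so that these ratios were the smaller ones. Median fitted log2 fold changes ran from 3.63 for the ubiquitin ligase genes and 3.41 for the cyclins to 1.096 for the helicase genes and 1.08 for the chromosome proteins. No test compared the roles.

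None of the 7 helicase and clamp genes and none of the 4 nucleotide synthesis genes passed the test at 5 weeks (edgeR), 0 of them did by DESeq2, and each had a fitted fold change above 0. Mcm5, a subunit of the helicase that unwinds DNA at the fork, had 0 to 40.3 CPM on cuprizone and 0.539 to 9.88 CPM on control chow (1.79 ± 0.89, adjusted p = 0.428, edgeR). Mcm2, of the same ring, had 0 to 29.1 CPM on cuprizone and 0 to 19.2 CPM on control chow (1.23 ± 0.85). Mcm3 was among the most abundant, at 48.1 to 124 CPM on cuprizone and 43.1 to 94.6 CPM on control chow (0.38 ± 0.23). The sliding clamp Pcna, which also serves DNA repair, had 12.2 to 77.9 CPM on cuprizone and 14.3 to 71.8 CPM on control chow (0.27 ± 0.40). Thymidine kinase Tk1 (1.26 ± 1.33) and the ribonucleotide reductase subunit Rrm2 (2.79 ± 1.31) were sparse, at 0 in 3 and 4 of 9 cuprizone libraries and in 4 and 7 of 9 control libraries. Rrm2 ran from 1.24 (without WT cuprizone mouse 9144) to 4.501 (without KO control mouse 1104). Cdc20, the activator of the anaphase promoting complex, had 0 to 27.1 CPM on cuprizone and 0 to 19.9 CPM on control chow (2.35 ± 1.13, adjusted p = 0.407, edgeR). Stmn1 had 0 to 8.10 CPM on cuprizone and 0 to 3.43 CPM on control chow (2.28 ± 1.23). Hmgb2, an abundant chromatin protein, had 39.8 to 120 CPM on cuprizone and 31.9 to 111 CPM on control chow (0.25 ± 0.31), so that its libraries overlapped almost wholly.

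**Figure D3:**
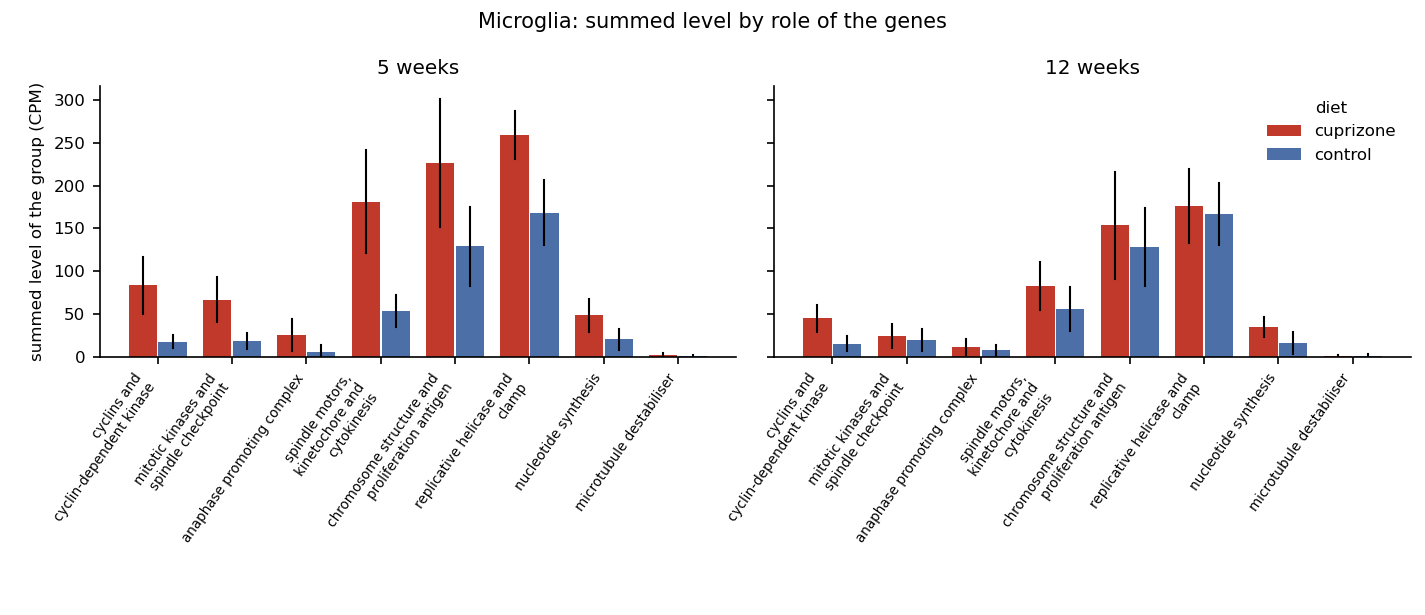
Mean summed level of each role group in microglia (y axis, CPM) on cuprizone (left bar) and control chow (right bar) at 5 and 12 weeks. Lines show ± 1 SD over 9 or 10 libraries, cut at 0. At 5 weeks the spindle group averages 181 CPM on cuprizone and 53.5 CPM on control chow, and at 12 weeks 82.4 CPM on cuprizone and 55.6 CPM on control chow.

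At 12 weeks 1 of the 39 genes was called higher in microglia, Cdk1, and none was lower, where 2.05% of all genes were called higher and 0.909% lower. The share of members, 1 of 39, was therefore near that background. The fitted fold change was above 0 in 29 of 39 genes, against 50.3% of all genes. The median was 0.36 (0.32 with 11 genes held at the floor), against 0.01 for all genes. At an unadjusted p under 0.05 there were 8 higher and 0 lower, where 8.06% of all genes were higher and 6.59% lower. For 5 members with groups at 0 (Aurkb, Bub1, Ccnb1, Rrm2 and Stmn1) the fit gave no usable standard error. DESeq2 called 2, Cdk1 and thymidylate synthase Tyms (3.63 ± 1.24 and adjusted p = 0.101 by edgeR). Without the libraries that stood apart the count was 1. The RNA integrity number was known for 3 libraries of each diet at 12 weeks, and averaged 7.6 on cuprizone and 8.93 on control chow. Ratios of the summed levels were 2.995 for the cyclins with Cdk1 (45.0 CPM on cuprizone, 15.0 CPM on control chow), 2.11 for nucleotide synthesis, and between 1.06 and 1.5 for the ubiquitin ligase, spindle, kinase, chromosome and helicase groups.

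**Figure D4:**
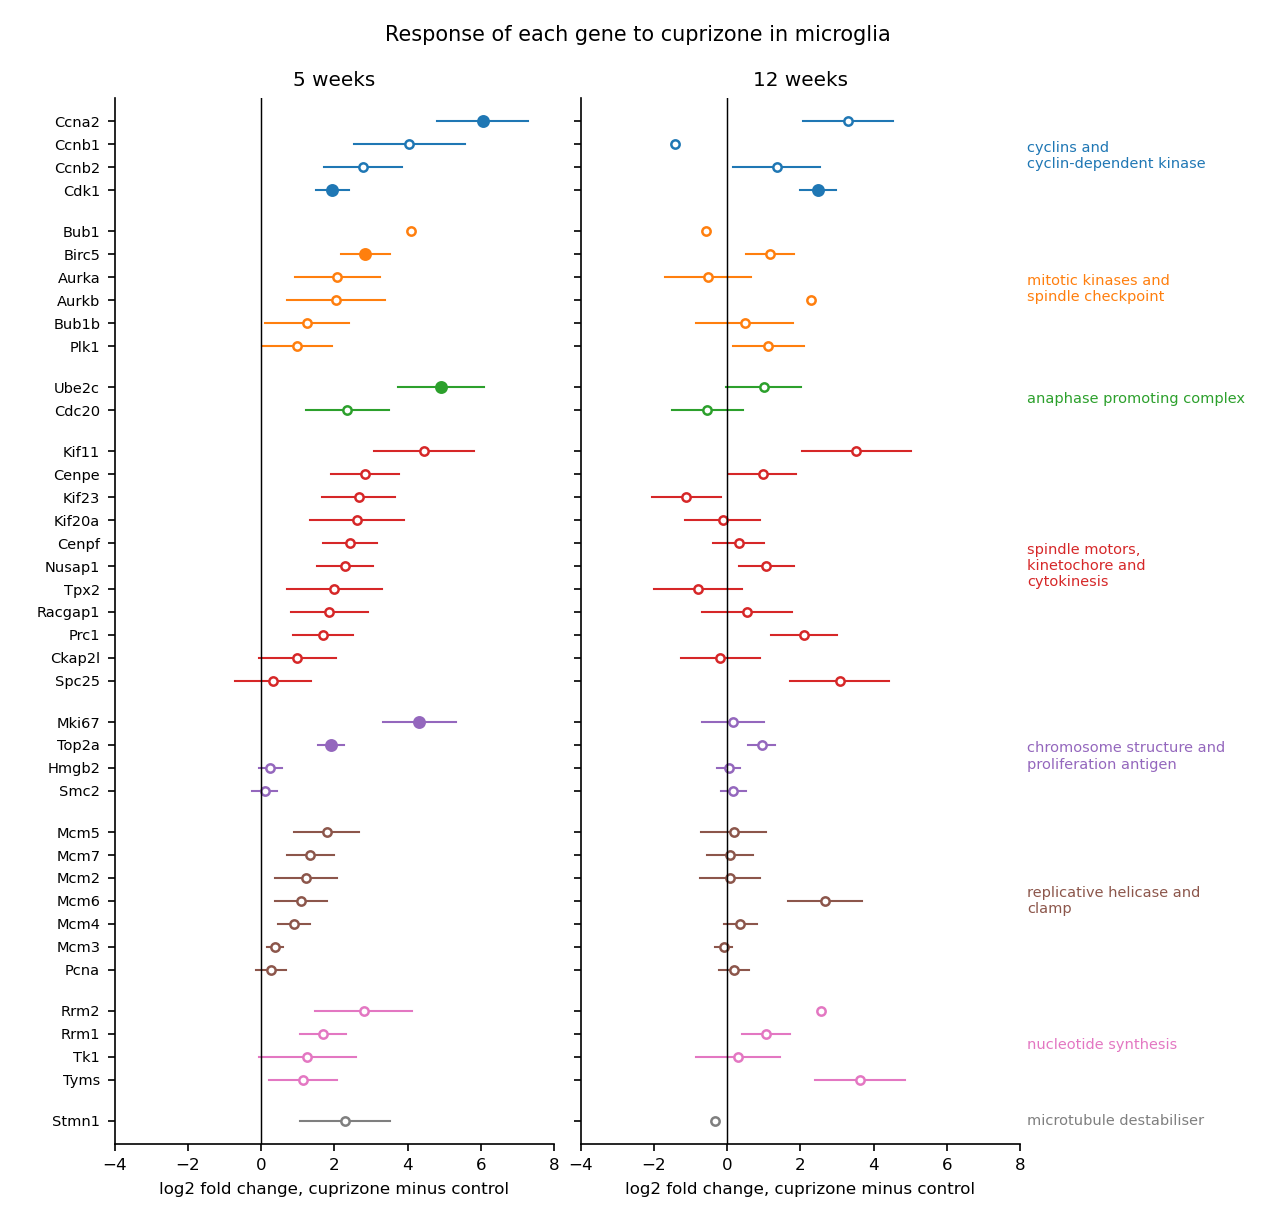
Fitted log2 fold change of each gene between cuprizone and control microglia (x axis), mean over genotypes, at 5 weeks (left) and 12 weeks (right), grouped by role. Lines show ± 1 SE, filled points have an adjusted p under 0.05, and a point without a line has too many libraries at 0 for a usable SE. All 39 points lie above 0 at 5 weeks and 29 at 12 weeks.

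The change with time was tested directly. The diet response at 12 weeks minus that at 5 weeks gave 0 of 39 genes by edgeR and 0 by DESeq2 (background 0.0071% higher and 0.0% lower), with 0 higher and 4 lower at an unadjusted p under 0.05, against 2.56% and 2.96% of all genes, and 7 members without a usable standard error. The median was -1.17 and 8 of 39 genes were above 0, against 50.2% of all genes. The smallest adjusted p was 0.463, for Mki67 (-4.17 ± 1.26). Top2a gave -0.97 ± 0.51, Ube2c -3.91 ± 1.5 and Cdk1 0.54 ± 0.63, none called. Within cuprizone-fed mice, microglia at 12 weeks held less of all 39 genes by the fitted value than microglia at 5 weeks, with a median of -1.26 against -0.07 for all genes. Of all genes 45.0% were above 0 there, Bub1 had no usable standard error, and 5 members had a group at 0. That comparison called 0 genes by edgeR (background 0.227% higher and 0.114% lower), with 0 higher and 9 lower at an unadjusted p under 0.05, against 4.33% and 6.18% of all genes. DESeq2 also called 0, but gave no adjusted p for 36 of the 39. Depth and RNA integrity also differed between these times. Libraries averaged 1636910 counts at 12 weeks and 2340170 at 5 weeks, and the integrity number 7.6 at 12 weeks (n = 3) and 9.43 at 5 weeks (n = 8), and their part in the result was not tested. The smallest adjusted p was 0.127, for Ccnb1, and Top2a gave -0.87 ± 0.34. Within controls, 12 weeks against 5 weeks gave 0 by edgeR (background 0.0071% and 0.0%), 2 higher and 5 lower unadjusted (3.56% and 4.39% of all genes), and a median of 0.08. DESeq2 gave 0 as well, with no adjusted p for 20 of the 39. The 3 comparisons share libraries with each other and with the diet comparisons.

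By genotype, the 5-week response was seen as a fitted value in each of the groups of 3 mice, and few single genes could be called. In KO microglia edgeR called 0 genes (background 0.0568% higher and 0.0% lower). Unadjusted, 4 were higher and 0 lower (3.78% and 2.93% of all genes), with 31 of 39 fitted values above 0 (50.97% of all genes) and a median of 1.29. DESeq2 gave no adjusted p for any of the 39 genes in KO or in WT, so it could not call one there. In HET microglia edgeR called Top2a alone (2.87 ± 0.66, adjusted p = 0.0281, background 0.263% higher and 0.0142% lower). Unadjusted, 13 were higher and 0 lower (4.64% and 3.52% of all genes). Of the 39 fitted values 38 were above 0 (48.97% of all genes), with a median of 2.33. DESeq2 called 5 (Top2a, Ube2c, Birc5, Nusap1 and Mki67) and gave no adjusted p for 7 of the 39. Without the libraries that stood apart the HET count was 3. Leaving out 1 of 4 libraries, HET controls 1745 or 9546 or HET cuprizone mice 1108 or 8042, ended the Top2a call. It was kept without HET control 4352 or HET cuprizone mouse 1106. Libraries of other groups were not left out for this comparison. In WT microglia edgeR called 0 (background 0.142% higher and 0.0% lower). Unadjusted, 9 were higher and 0 lower (4.22% and 2.61% of all genes), with 36 of 39 fitted values above 0 (51.26% of all genes) and a median of 1.79. Leaving out the WT control mouse 1930 gave 1 call. Top2a gave 1.62 ± 0.63 in KO and 1.23 ± 0.61 in WT.

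At 12 weeks edgeR called 0 genes in KO microglia (background 0.0284% and 0.0%, 1 higher and 0 lower unadjusted where 3.12% and 4.32% of all genes were). DESeq2 also called 0 there, but gave no adjusted p for 33 of the 39. In HET microglia edgeR called 0 (background 1.88% and 0.667%, 6 higher and 0 lower unadjusted where 6.97% and 6.52% were, DESeq2 3). In WT microglia it called Cdk1 (4.27 ± 1.08, adjusted p = 0.0345, background 0.689% and 0.27%, 4 higher and 0 lower unadjusted where 6.52% and 4.37% were). Cdk1 stood at 63.4, 32.5 and 27.1 CPM on cuprizone and 0.717 and 3.83 CPM on control chow. Only 2 controls stand behind the call on Cdk1, and it was lost without any 1 of the 5 WT libraries and without the libraries that stood apart. Without these the count was 1 in HET.

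The test of a difference between KO and WT responses called none of the 39 genes. For the diet response of KO minus that of WT, edgeR and DESeq2 called 0 at 5 weeks (background 0.0% higher and 0.0071% lower, 0 higher and 3 lower unadjusted, where 2.02% and 2.53% of all genes were) and 0 at 12 weeks (0.0% and 0.0284%, 2 higher and 4 lower unadjusted, where 3.44% and 7.17% were). The 4 lower at 12 weeks were thus near the share of all genes. DESeq2 gave no adjusted p for 32 of the 39 at 12 weeks, so its 0 there covers only the rest. Medians were -0.38 (-0.57 with the floor) and -0.87 (-0.58). At 5 weeks Top2a gave 0.39 ± 0.86 and Mki67 -2.22 ± 2.17, and at 12 weeks Cdk1 gave -3.02 ± 1.27 (adjusted p = 0.376, edgeR). With standard errors of this size, a missed threshold does not show that the genotypes responded alike.

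Set side by side on the same diet, KO minus WT on cuprizone at 5 weeks called 0 genes (background 0.0% and 0.0781%, 0 higher and 1 lower unadjusted where 2.19% and 2.95% of all genes were). The median was -0.67, 10 of 39 genes were above 0 (49.6% of all genes), and Cdk1 gave -0.97 ± 0.73. The summed levels were 661 to 879 CPM in KO and 660 to 1198 CPM in WT, and they overlapped. HET minus WT on cuprizone at 5 weeks called 0 (background 0.0% and 0.0%, 0 and 0 unadjusted, median -0.06). At 12 weeks on cuprizone, KO minus WT called 0 (background 0.114% and 0.327%, 1 and 1 unadjusted, median -0.14) and HET minus WT called 0 (0.121% and 0.0%, 2 and 0 unadjusted, median 0.01). On control chow over both times, KO minus WT called 0 (0.0% and 0.0142%, 4 and 0 unadjusted, median 0.54) and HET minus WT called 0 (0.0% and 0.0%, 4 and 2 unadjusted, median 0.02). Over these 6 comparisons 1.93% to 5.30% of all genes were higher and 2.02% to 5.59% lower unadjusted. DESeq2 also called 0 in each of these 6 comparisons, which share their WT libraries in pairs. It gave no adjusted p for 36 of the 39 genes in HET minus WT on cuprizone at 12 weeks. Genes without one numbered 7 in KO minus WT on cuprizone at 12 weeks and 5 in HET minus WT on control chow.

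In nonmicroglia none of the 38 genes tested (Ccnb2 did not pass the filter) was called in any of 19 comparisons, by edgeR or by DESeq2. With cuprizone against control, DESeq2 gave no adjusted p for 37 of them in KO at 5 weeks. At 12 weeks it gave none for 23 in WT and 12 in HET, and at most 7 lacked one in any other comparison. With cuprizone at 5 weeks the background of calls was 0.278% higher and 0.166% lower and the median 0.26 (0.02 with the floor). At an unadjusted p under 0.05, 2 members were higher and 1 lower, near the 4.55% and 3.04% of all genes. At 12 weeks the background of calls was 0.319% and 0.177% and the median 0.00, with 0 and 1 unadjusted (4.57% and 3.84% of all genes). The difference of the responses had a background of 0.00591% and 0.0%, with 0 and 2 unadjusted (1.97% and 2.26%). For 12 against 5 weeks on cuprizone it was 0.29% and 0.674%, with 0 and 1 unadjusted (3.98% and 7.09%), and on control chow 0.106% and 0.136%, with 1 and 0 (4.61% and 6.03%). In the other 14 comparisons, by genotype, 0 to 5 members were higher and 0 to 3 lower unadjusted, where 1.24% to 4.505% and 1.21% to 4.39% of all genes were. Between 0 and 9 members per comparison had no usable standard error. The backgrounds of calls by genotype with cuprizone at 5 weeks were 0.0296% higher in KO, 0.0591% in HET and 0.0414% in WT, and 0.0% lower in each. At 12 weeks they were 0.0296% higher and 0.00591% lower in KO, 0.13% and 0.0118% in HET, and 0.065% and 0.0236% in WT. KO minus WT on control chow gave 0.00591% higher and 0.0% lower, and the remaining 7 gave 0.0% in both directions. Top2a had medians of 15.3 CPM on cuprizone and 18.5 CPM on control chow at 5 weeks, and Cdk1 5.52 CPM on cuprizone and 1.65 CPM on control chow. Birc5 had medians of 3.05 CPM on cuprizone and 2.11 CPM on control chow, and Mki67 of 1.83 CPM on cuprizone and 1.38 CPM on control chow, with ranges that overlapped.

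Microglia were then set against nonmicroglia of the same mice. On cuprizone at 5 weeks 19 of the 39 genes were higher in microglia and 0 lower (edgeR, background 16.8% higher and 27.5% lower of 18408 genes tested), with a median of 2.41, and DESeq2 called 16. The count was 15 with the mouse as a replicate block, and 12 without KO mouse 8485 or WT mouse 9144. The block ended 6 calls, on Tk1, Ccnb1, Aurkb, Cdc20 (adjusted p = 0.187), Mcm6 (0.0504) and Tyms (0.106), and added Cenpe (0.0289) and Ube2c (0.0268, all edgeR). Top2a had 39.5 to 132 CPM in microglia and 5.30 to 29.6 CPM in nonmicroglia (2.78 ± 0.45, adjusted p = 1.26e-07, edgeR). Ccna2 (4.58 ± 1.31), Birc5 (3.38 ± 0.87), Cdk1 (3.16 ± 0.73) and Prc1 (3.16 ± 1.01), which bundles microtubules at the spindle midzone, were called with the block too and without any 1 mouse. Other calls rested on few libraries. Tk1 (5.90) was lost with the block (adjusted p = 0.0854) and without mouse 2478. Ccnb1 (4.04) was lost with the block (adjusted p = 0.358) and without any of mice 1106, 2478, 743, 8042, 8485 and 9144. Aurkb (3.63), the kinase partner of Birc5, was lost with the block (adjusted p = 0.264) and without mouse 8042, 8485 or 9144. Ccnb2 (3.41) kept its call with the block and lost it without mouse 1106, 2474, 743, 8042 or 8485 (adjusted p = 0.0505 to 0.0823, edgeR). Aurkb was not called by DESeq2 (adjusted p = 0.235), and DESeq2 gave no adjusted p for Ccnb1. The losses of Tk1 without 2478, Ccnb1 without 1106 and Aurkb without 8042 came with no usable standard error, so they show that the fold then could not be fitted.

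On control chow 5 genes were higher in microglia, Mcm3 (2.90 ± 0.33), Tk1 (4.16), Mcm5 (2.23), Cenpe (1.91) and Pcna (0.89), and 2 were lower, Stmn1 (-4.29 ± 0.89) and Ccna2 (-3.20 ± 0.98). Among all genes 20.2% were higher and 27.6% lower, and the shares of the 39 were below that background. DESeq2 called 3 higher (Mcm3, Mcm5 and Tk1) and 3 lower (Stmn1, Ccna2 and Mcm7). Mcm3 and Stmn1 kept their calls with the block and without any 1 mouse. With the block Tk1 and Ccna2 were not called (adjusted p = 0.0673 and 0.0875), and Cdk1 was (1.75 ± 0.55, adjusted p = 0.00418, edgeR). Tk1 was also lost without mouse 1932, 7674, 8635 or 9470, Ccna2 without 4352, 9145 or 945, Cenpe without 1104, 1745 or 1932, Mcm5 without 1932 and Pcna without 9467. Without mouse 1932 the count was 4. All the losses of Tk1 and Ccna2 by mouse, that of Mcm5, and that of Cenpe without 1745 came with no usable standard error. Cenpe and Pcna were not called by DESeq2 (adjusted p = 0.0827 and 0.0869) or by edgeR with DESeq2 size factors (0.0538 and 0.115).

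On cuprizone at 12 weeks 6 genes were higher in microglia and 1 lower, against 15.8% and 27.0% of all genes, and DESeq2 also called 6 and 1. Mcm3 (2.69 ± 0.43) and Cdk1 (2.54 ± 0.68, adjusted p = 0.0014) were called without any 1 mouse. Stmn1, which neuronal precursors also express, was the lower gene (-4.55 ± 1.18), with a median of 0 CPM in microglia and 7.48 CPM in nonmicroglia. Top2a (1.09 ± 0.41, adjusted p = 0.0233, edgeR) was lost without mouse 1748 or 9469 (adjusted p = 0.0875 and 0.0626) and with DESeq2 size factors (adjusted p = 0.0639). Ube2c (6.54) had no count in all 10 nonmicroglia libraries and was lost without mouse 9542. Ccnb2 and Smc2 were lost with the block (adjusted p = 0.323 and 0.0967). Ccnb2 was also lost without mouse 1040, 8043 or 981, and Smc2 without 1748, 3917, 9469 or 981, with DESeq2 size factors (adjusted p = 0.0957) and without the filter (0.0962). Birc5 was called with the block (2.22 ± 0.85, adjusted p = 0.0295, edgeR). The losses of Ube2c without 9542 and of Ccnb2 without 1040 or 8043 came with no usable standard error.

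Whether microglia responded to cuprizone differently from nonmicroglia was tested as a difference of responses at 5 weeks. It called Ccna2 alone (8.12 ± 1.86, adjusted p = 0.0149, edgeR; 4.97 with the floor), against a background of 0.282% higher and 0.152% lower, with 8 higher and 0 lower at an unadjusted p under 0.05 (3.69% and 4.23% of all genes) and a median of 1.65. DESeq2 called Birc5 and Top2a and gave no adjusted p for 19 of the 39 genes, Ccna2 among them. For 5 members (Aurkb, Bub1, Ccnb1, Rrm2 and Tk1) the edgeR fit gave no usable standard error. With the mouse as a replicate block 0 were called, and Ccna2 had an adjusted p of 0.205. The call on Ccna2 was also lost without HET mouse 4352, KO mouse 945 or WT mouse 5512, controls at 5 weeks, in the cases of 4352 and 945 with no usable standard error.

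Other genes of the cycle were taken from lists that do not include the 39. Of 67 tested genes of replication and mitosis, 4 rose in microglia at 5 weeks and 0 fell, where 1.33% of all genes were called higher and 0.27% lower. A fitted value above 0 was found for 58 of the 67, against 50.01% of all genes, with a median of 1.34 against 0.00. The 67 are listed genes that passed the filter on low counts, which a gene can pass through cuprizone libraries alone. The lists were also chosen with earlier results of these data known, so the 58 of 67 is a description and not independent support. The 4 called were Ccne2, a cyclin E of the G1 to S transition (8.59 ± 7.44 CPM on cuprizone, 0.21 ± 0.47 CPM on control chow, SD, n = 9 each, adjusted p = 0.0177), Sgo1, a guardian of sister chromatid cohesion (5.39 ± 5.51 CPM on cuprizone, 0.09 ± 0.19 CPM on control chow, adjusted p = 0.0324), Kif22, a chromosome motor, and Cep55, a protein of the final cut between daughter cells. Kif22 and Cep55 had no count in the 9 control libraries, and 0 to 10.9 and 0 to 30.7 CPM on cuprizone (adjusted p = 0.0415 and 0.0440, edgeR). At 12 weeks 0 of the 67 were called by edgeR (2.05% of all genes were called higher and 0.909% lower), with a median of 0.22 against 0.01.

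Of 19 genes of cycle entry and its brakes, 0 were called at 5 weeks by edgeR, with a median of 0.00 and 10 above 0. The shares of all genes called were those just given for 5 and 12 weeks. At 12 weeks Cdkn1a, which encodes the inhibitor p21, rose (116 ± 32.1 CPM on cuprizone, n = 10, and 58.6 ± 17.8 CPM on control chow, n = 9; 1.11 ± 0.24, adjusted p = 0.00202), while the D-type cyclins Ccnd1 (228 CPM on cuprizone, 379 CPM on control chow, -0.65 ± 0.16, adjusted p = 0.00965) and Ccnd2 (29.4 CPM on cuprizone, 71.4 CPM on control chow, -1.29 ± 0.32, adjusted p = 0.0120) fell, all by edgeR. Between 5 and 12 weeks on cuprizone Btg1, an antiproliferative gene, rose (299 ± 74.5 CPM at 5 weeks and 544 ± 151 CPM at 12 weeks; 0.89 ± 0.18, adjusted p = 0.00596). Of 11 tested growth signals and receptors, Csf1, the ligand of the receptor on which microglia depend, rose at 5 weeks (201 ± 121 CPM on cuprizone and 40.4 ± 18.5 CPM on control chow; 2.20 ± 0.35, adjusted p = 0.000267), as did Igf1 (1.43 ± 0.34, adjusted p = 0.0165) and Csf2ra (1.09 ± 0.29, adjusted p = 0.0313). Csf1 (2.09 ± 0.36, adjusted p = 0.000415) and Igf1 (3.35 ± 0.39, adjusted p = 2.15e-07) were also called at 12 weeks. In nonmicroglia Cdkn1a (363 CPM on cuprizone and 49.8 CPM on control chow, adjusted p = 1.04e-05) and Ccnd1 (215 CPM on cuprizone and 101 CPM on control chow, adjusted p = 0.00201) rose at 5 weeks.

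Markers of other dividing cells were measured in the same microglia libraries. Neutrophil and precursor markers summed to 383 to 3681 CPM on cuprizone and 111 to 8146 CPM on control chow at 5 weeks. On cuprizone at 5 weeks monocyte markers summed to 93.1 to 467 CPM, border macrophage markers to 533 to 1278 CPM, lymphocyte markers to 0.6 to 18.9 CPM, erythroid markers to 0 to 25.1 CPM, and neuroblast markers to 5.0 to 43.7 CPM. On control chow at 5 weeks the sums were 96.1 to 406 CPM for monocyte, 860 to 1648 CPM for border macrophage, 0.5 to 28.8 CPM for lymphocyte, 0 to 21.3 CPM for erythroid and 9.5 to 26.4 CPM for neuroblast markers. Each of these ranges overlapped between the diets. Oligodendrocyte precursor markers reached higher on cuprizone, at 9.6 to 102 CPM against 10.3 to 38.3 CPM on control chow at 5 weeks, and 25.2 to 89.8 CPM on cuprizone against 8.6 to 40.2 CPM on control chow at 12 weeks. All 11 precursor markers had a count on cuprizone, and Lhfpl3 had none on control chow at 5 weeks. In nonmicroglia, where the precursor markers summed to 591 to 1569 CPM, the 39 genes summed to 226 to 605 CPM. The part of these cells in the results was not tested.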

How the data were processed

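The deposited table holds raw counts of 3' tags per gene, as whole numbers with no normalization, made by the authors from libraries of 74 sorted fractions (37 mice). The assembly was GRCm38.p6 and the tools named were STAR, R 3.4.3, MultiQC and FastQC 0.11.5, per the submitters' processing notes. The sources used here state no counter, annotation, strand setting or use of molecular identifiers, so overlapping genes and paralogs can share counts. CPM are counts divided by the library total. Coordinates are from GENCODE M21, in which 35 of the 39 genes have the same identifier version, and promoters are from RefSeq.

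Each fraction was fitted with edgeR 4.0.16 in R 4.3.3 (TMM, filterByExpr with a minimum count of 10, robust quasi-likelihood, 12 group means and sex), and both fractions together with 24 group means and sex. Tests were two-sided, with Benjamini-Hochberg adjustment over all genes of a comparison, and 42 comparisons were made. A standard error is the fold change divided by the root of F. Self-tests ran on simulated counts. Named genes are a panel of 13 members, the called members of each comparison (where more than 8, those of largest change), and up to 4 called genes of each further list. Mcm3, Cenpf, Tyms, Mcm6 and others fall outside this rule and were picked with their values in view. The members and lists were chosen with earlier results of these data known. No library was a copy of another (lowest chi-square per degree of freedom 8.56 over 2701 pairs).

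Replicates are separate mice per the labels. The 2 fractions of a mouse share its number, so the numbers pair them, with correlations of their deviations from -0.0456 to 0.122 (median 0.0177, 4 above 0.1). An alternative was size factors of the DESeq2 type, computed and fitted in edgeR (method RLE) and called DESeq2 size factors here. Others were the DESeq2 1.42.0 Wald test (a local dispersion trend outside the microglia fits), no filter, no sex term, each mouse left out in turn (with the dispersion trend kept from the full fit, and the 1 WT control then left at 12 weeks assumed to vary like the other groups), the mouse as a replicate block between fractions and, added after the data were seen, leaving out libraries beyond 50 on principal component 1 or 2. Each mouse was left out only in comparisons that include its group. An RNA integrity number was given for 44 libraries and was not modelled.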

Additional observations from a re-analysis of the deposited data

Results flagged for a closer look

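A library that stood apart from the rest of its group was found 8 times in 48 groups tested, and chance gives about 1 in 20 groups for evenly spread values. That rate does not hold for sparse counts, where a single count among libraries at 0 is enough, nor for groups that share libraries, so the number of such libraries is not a result. In HET controls at 12 weeks Mki67 was 26.8 CPM in mouse 7674 and 0 in the other 3, and Ccna2 was 2.60 CPM in mouse 943 and 0 in the other 3. In HET mice on cuprizone at 12 weeks the summed level of the 39 genes was 673 CPM in mouse 9469 and 455 to 492 CPM in the others, and Ccna2 was 3.36 CPM in mouse 6296 and 12.1 to 13.9 CPM in the others. Over the 9 microglia controls at 5 weeks Mki67 was 11.7 CPM in mouse 1104 (others 0 to 2.75), Ccna2 was 8.28 CPM in mouse 1745 (others 0 to 2.17) and Ube2c was 4.63 CPM in mouse 9470 (others 0 to 1.08). Over the 9 microglia libraries on cuprizone at 5 weeks Mki67 was 61.0 CPM in mouse 9144 (others 9.80 to 25.9). The response of Ccna2 to cuprizone at 5 weeks differed between microglia and nonmicroglia by 8.12 on the log2 scale (4.97 with the floor, adjusted p = 0.0149, edgeR), but it was not called with the mouse as a replicate block (adjusted p = 0.205) or without mouse 4352, 5512 or 945.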

How the results depend on the processing

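The 6 genes called in microglia at 5 weeks were called without any 1 of the 18 mice fed for 5 weeks, and the count ran from 6 to 8; without the filter it was 10. At 12 weeks the count was 2 by DESeq2 and without the filter, and 1 to 2 without each mouse. Within genotypes the count at 5 weeks was 1 in WT without the filter and 0 to 1 without each mouse, and in HET 5 by DESeq2, 3 without the filter, 3 without the libraries that stood apart on the principal components, and 0 to 1 without each mouse. At 12 weeks it was in WT 2 by DESeq2, 0 without the libraries that stood apart and 0 without each mouse, and in HET 3 by DESeq2 and 1 without the libraries that stood apart. Between fractions it was 4 to 8 on control chow, 12 to 19 on cuprizone at 5 weeks and 5 to 8 at 12 weeks without each mouse, and for the difference of responses 2 by DESeq2, 0 with the replicate block and 0 to 1 without each mouse. Without each mouse, Tk1 at 5 weeks ran from -0.39 to 2.43, Mki67 at 12 weeks from -0.32 to 2.31 (below 0 without KO mouse 981, WT mouse 9145 or WT mouse 8043) and Ube2c at 12 weeks from -0.62 to 2.95. The cause was not tested. DESeq2 size factors and the fit without sex moved no count by over 1.5 times, and with the replicate block, run between fractions, no call changed other than those named with the fractions. Genes at 0 to a few counts per library limit what single members can show.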
